A study of Drosophila melanogaster with 6 samples.

Results

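Of 11982 genes measured in Drosophila melanogaster embryos, 117 read consistently lower when they came from germline clones mutant for brakeless. The greatest difference, -6.06 on the log2 scale, was that of the ribosomal protein gene RpS10a, and it ran from -7.32 to -5.40 when 1 array was left out. RpS10a did not pass the test across all probe sets (limma adjusted p = 0.206). The set also held additional copies of widely used genes, among them copies of translation and respiratory chain genes. A gene was taken into this set when the highest of its 3 brakeless arrays lay below the lowest of its 3 control arrays, the brakeless mean was lower by at least 1 on the log2 scale (2-fold), and the control mean was at least 5. The set was therefore chosen on the brakeless minus control difference. Those differences are given below as a description and were not tested again. Separate arrays with the brakeless side lower were found in 6.4% of all genes and in 6.55% of those with a control mean of at least 5. The full rule kept 0.976% of all genes, or 1.96% of the 5955 genes with a control mean of at least 5. Turned round, to pick genes higher in brakeless embryos, the same rule kept 54 genes.

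The RNA came from pools of dechorionated embryos collected for 2 h at 25 °C and aged for another 2 h, so that they were 2 to 4 h old. Brakeless embryos, with 3 arrays, had mothers of the genotype FRT2R G13 bks278/FRT2R G13 ovoD1 and fathers of the genotype FRT2R G13 bks278/CyO. Control embryos, also with 3 arrays, had mothers of the genotype FRT2R G13/FRT2R G13 ovoD1 and fathers with FRT2R G13. All mothers thus shared the ovoD1 and FRT2R G13 chromosomes, and the labels list CyO in the brakeless cross alone. The allele bks278 is a strong mutation of sbb, the gene that encodes Brakeless, and the control chromosome is the unmutagenized one it was made on. With fathers heterozygous over CyO, each brakeless pool would mix embryos with and without a paternal wild-type copy. The labels call the arrays of a group biological replicates. In bulk RNA of this kind, fewer cells that express a gene and less transcript per cell cannot be told apart.

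Brakeless is a nuclear protein that works as a transcriptional co-regulator, best known for repressing genes together with Atrophin. The ovoD1 mutation blocks egg production by germ cells that still carry it, so that laid eggs come from the recombined, homozygous germ line. At this age the embryo holds RNA loaded by the mother during oogenesis together with the first transcripts of its own genome. A lower level can therefore concern either pool, and the arrays do not separate them.

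The title of control replicate 3 gives that number, while its description carries the number 4. This array stood apart from the others, with a mean correlation of 0.964 with those, against 0.979 to 0.986 for the rest. Without it 150 genes met the rule, of which 95 were among the 117. Markers of the labelled stage were present: 13 early zygotic genes averaged 7.54 to 8.29 on the brakeless arrays and 7.89 to 8.48 on the control arrays. Of the 13, 10 had a negative difference, with a median of -0.22. All 8 measured maternal genes of the kind cleared at this stage had a higher mean in brakeless embryos, with a median difference of 0.51. Their list averaged 10.99, 10.63 and 10.64 on the brakeless arrays and 10.50, 10.75 and 9.42 on the control arrays. Control replicate 3 was thus the lowest, while control replicate 2 read above brakeless replicates 2 and 3. All 6 measured muscle genes of older embryos had a lower mean in brakeless embryos, with a median difference of -0.73. None of these 3 lists held a gene past the test (limma), with 3 early zygotic genes lower at an unadjusted p under 0.05 and 0 genes of the other lists in either direction. Over all 18769 probe sets 557 were lower at that level (limma). The part of embryo age in the differences below was not tested. The 10 measured eggshell genes, which would mark retained eggs or follicle cells, stayed under 5 on every array. The median over all probe sets was 3.67, and values near it are called the low end of the scale below.

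The signal level of the set was moderate. The median control mean was 6.92, against 8.50 for all genes with a control mean of at least 5. In the brakeless embryos the median of the means was 4.94. A control mean of 8 or more was found for 34 of the 117 genes, or 29.1%, against 62.0% of all genes above the floor of 5. For 49 of the 117 genes all 3 brakeless arrays read under 5. At the other end, 15 genes still read 7 or more on every brakeless array, so that transcript was clearly measured in both groups. The median difference was -1.55, beside 0.0091 over all genes with a control mean of at least 5. There were 34 genes with a difference of -2 or beyond and 8 with -3 or beyond. The median SD was 0.29 in brakeless and 0.44 in control embryos, beside 0.27 in brakeless and 0.40 in control embryos for all genes above the floor.

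**Figure D1:**
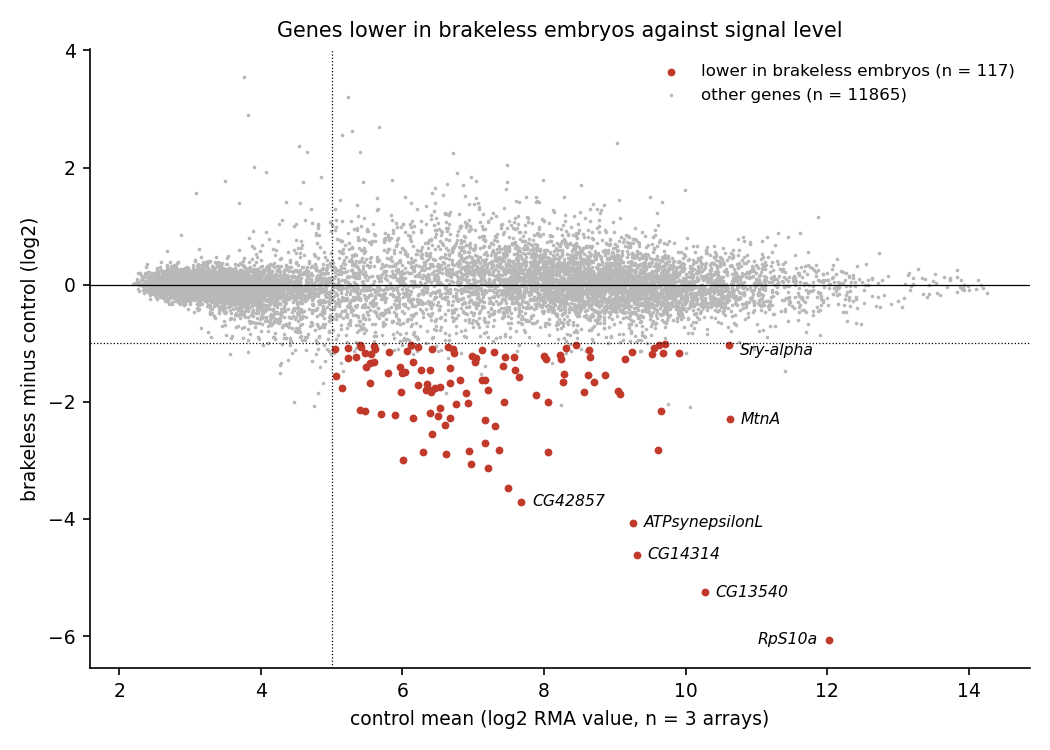
Difference between brakeless and control embryos (log2, y axis) against the control mean (log2 RMA value, x axis) for each of 11982 genes. Red points are the 117 genes of the set, grey points all others, and the dotted lines mark the rule's limits of 5 and -1. RpS10a, at a control mean of 12.02 and a difference of -6.06, lies farthest from the cloud.

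Some genes lay close to the limits. Just inside the limit on the difference stood Trf4-2 (-1.02), CG5023 (-1.03) and Sry-alpha (-1.03). Just outside were CG13369 (-0.998), MED4 (-0.99) and CG12056 (-0.99). At the limit on the control mean, CG9512 (5.04), CG14218 (5.06) and CG1894 (5.15) were kept, while vilya (4.96), CG12310 (4.91) and tomb (4.89) were not. The narrowest separations between the lowest control and the highest brakeless array were 0.016 for hll, 0.052 for Cpr47Eg and 0.093 for CG7860. In CG15515, Hsp68 and CG5455 the same separation was -0.0073, -0.027 and -0.041, an overlap, and these genes were left out.

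The lowest brakeless level relative to control was that of RpS10a (3R, 27652760 to 27653363, Release 6 plus ISO1 MT), which encodes a second form of the small ribosomal subunit protein S10. It read 4.64, 4.77 and 8.48 on the brakeless arrays, against 12.40, 11.45 and 12.22 on the control arrays, a difference of -6.06. Brakeless replicates 1 and 2 were at a low level, whereas replicate 3 lay between them and the controls. On the linear scale replicate 3 reached 8.60% of the control mean. CG13540 (2R, 23270477 to 23271059) had the same shape, at 4.41, 3.89 and 6.76 in brakeless embryos and 10.55, 10.02 and 10.25 in control embryos, a difference of -5.25. ATPsynepsilonL (3R, 10121773 to 10122320), a gene related to the epsilon subunit of mitochondrial ATP synthase, read 4.59, 4.66 and 6.35 in brakeless embryos, against 9.68, 8.72 and 9.39 in control embryos. Here too replicate 3 was the highest brakeless array, and the groups were 2.37 apart at their nearest arrays.

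Brakeless replicate 3 was the highest brakeless array in 10 of the 12 genes with the greatest difference. Over the whole set it was highest in 65 genes (55.6%), against 35.4% of all genes above the floor. The 12 genes kept a separation of 1.85 to 3.64 between the groups. Control replicate 3 was the highest control array in 73 of the 117 genes (62.4%), against 41.4% of all genes above the floor. Averaged over the 117 genes the arrays read 5.25, 5.37 and 5.57 in brakeless embryos and 7.12, 7.05 and 7.43 in control embryos.

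Others among the 12 greatest differences were CG14314 (-4.61), CG42857 (-3.71), CG12782 (-3.47), eIF4E3 (-3.13), CG7512 (-3.07), CG17560 (-2.99), Rcd-1r (-2.89), mtsh (-2.85) and CG2993 (-2.85). CG42857 (3R, 9820514 to 9821191) read 3.79, 3.40 and 4.73 in brakeless embryos, against 8.97, 6.72 and 7.35 in control embryos, with control replicate 1 far above the other controls. CG7512 (3L, 11513705 to 11518904) read 3.68, 3.71 and 4.33 in brakeless embryos and 6.32, 7.16 and 7.44 in control embryos. All of its brakeless arrays were near the low end, where RMA compresses differences, as it does for CG12782, CG17560, Rcd-1r and CG2993. Of these 12 genes 7 carry only a computed gene number as their name.

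Under the test across all 18769 probe sets (limma, two-sided, Benjamini-Hochberg adjusted p of at most 0.05) 20 probe sets, or 0.107%, were lower and 6, or 0.032%, were higher, and 15 genes of the set were among them. Among all genes with a control mean of at least 5 the share was 0.252%, and all 15 of those genes are in the set. The rule used the same contrast, so nothing is read from this count. Their adjusted p ran from 0.0154 to 0.0371 (limma). The 15 had SDs of at most 0.47 in brakeless and 0.48 in control embryos, while RpS10a had an SD of 2.19 in brakeless embryos and did not pass. The 15 were CG14314, CG17560, Rcd-1r, CG2993, ord, Cyp6d2, cGlr2, CG10916, CG1894, CG32773, CG11200, GLaz, CG9119, CG1503 and CG17167. Of these, CG1894 differed by -1.76, CG32773 by -1.68, CG11200 by -1.66 and CG9119 by -1.62. CG17167, on the X chromosome, had small spreads, averaging 4.94 ± 0.05 over the brakeless arrays and 6.39 ± 0.10 over the control arrays (SD, n = 3 each). CG1503 read 6.94, 7.15 and 7.12 in brakeless embryos and 8.50, 8.61 and 8.75 in control embryos, well above the low end in both. The count was 0 when the first or second brakeless array or the second control array was left out, with 346 to 886 probe sets lower at an unadjusted p under 0.05 (limma). It was 4 without brakeless replicate 3 or control replicate 1, and 18 without control replicate 3.

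**Figure D2:**
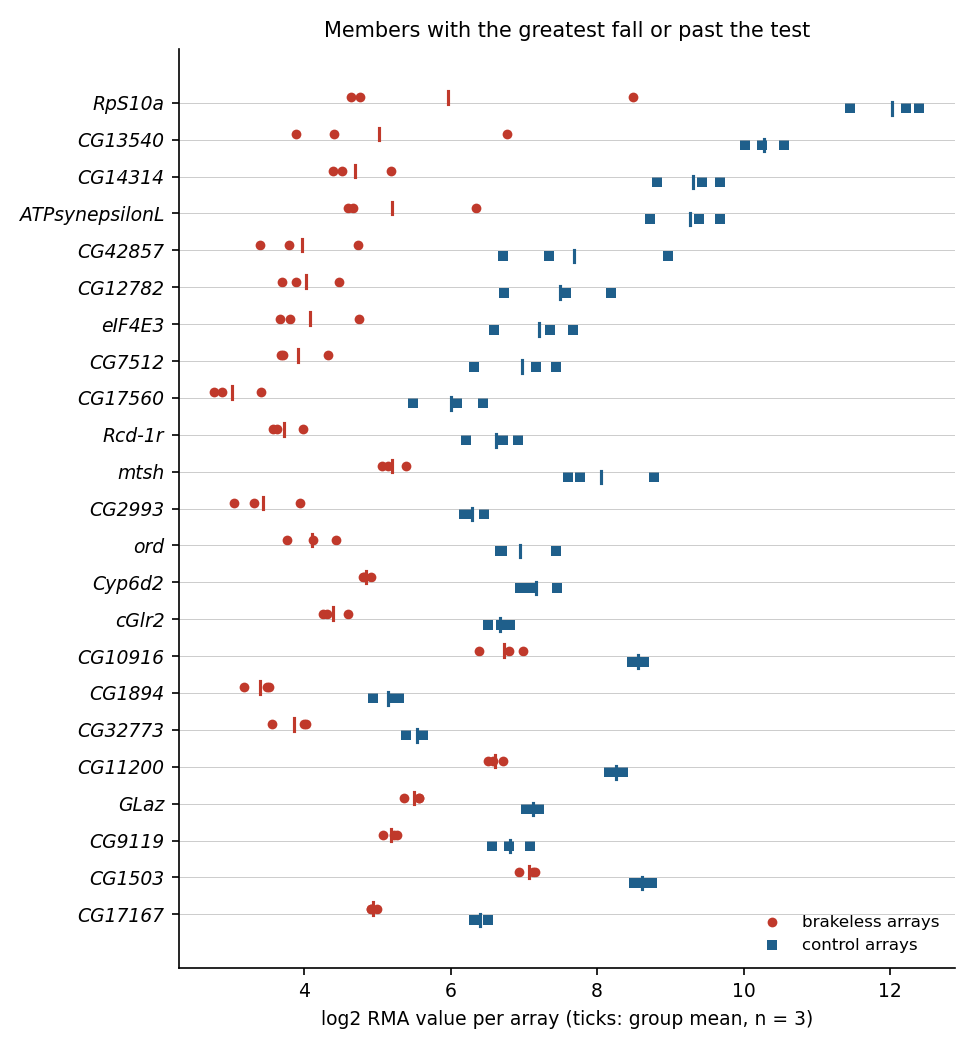
Log2 RMA values on each array (x axis) for the 23 genes of the set with the 12 greatest differences or an adjusted p of at most 0.05, ordered by the difference. Red circles are brakeless arrays, blue squares control arrays, and vertical ticks group means (n = 3). The groups are separate in every row, as the rule requires, and 1 brakeless array of RpS10a, at 8.48, stands far above the other brakeless arrays.

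A group of 13 genes of the set is known from the germ line or consists of additional copies of widely used genes. The grouping was made after their values were seen, so it gets no test. Its differences ran from -6.06 to -1.02 with a median of -2.16. Many such copies are known in Drosophila to be used mainly in the testis or the germ line, while the related gene serves most cells. Besides RpS10a and ATPsynepsilonL the copies were eIF4E3, a cap-binding translation factor used in spermatogenesis, Rcd-1r, which resembles Rcd-1 of the CCR4-NOT deadenylase, TfIIA-S-2, a form of the general transcription factor subunit TfIIA-S, and Cyt-c1L, a cytochrome c1 of the respiratory chain. RpL22-like, a large-subunit ribosomal protein, Rpt3R, a proteasome base ATPase, SkpB, a relative of the ubiquitin ligase adaptor SkpA, and Trf4-2, a noncanonical poly(A) polymerase, completed them.

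eIF4E3 (3L, 8229224 to 8230568) read 3.80, 3.67 and 4.75 in brakeless embryos, against 7.35, 6.60 and 7.67 in control embryos. TfIIA-S-2 (X, 1011101 to 1011643) read 3.08, 3.15 and 3.56 in brakeless embryos, against 5.86, 4.48 and 5.85 in control embryos, where replicate 2 was the lowest control. Cyt-c1L read 4.72, 5.35 and 5.06 in brakeless embryos and 6.70, 6.62 and 7.37 in control embryos. In each of these genes every brakeless array lay in the lower part of the scale. Rpt3R, at 6.79, 6.78 and 7.33 in brakeless embryos and 8.05, 7.94 and 8.74 in control embryos, and Trf4-2, at 8.90, 8.73 and 8.42 against 9.32, 9.63 and 10.16 in control embryos, remained well measured in both groups.

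For 8 of the copies a related gene was measured on its own probe set, and none of these 8 was lower past the test (limma, with 0 at an unadjusted p under 0.05 as well). Of the 8 copies themselves only Rcd-1r passed (limma adjusted p = 0.0181), so passing the test does not set the copies apart. Differences of the related genes ran from -0.35 for TfIIA-S to 0.35 for eIF4E1, with a median of -0.10. The 95% intervals of the moderated fit reached from -1.27 to 0.90 over the 8 genes, and a difference as large as -1.27 lies inside the widest of them. The ATP synthase epsilon gene sun read 6.29, 6.17 and 6.35 in brakeless embryos, against 6.44, 6.22 and 6.32 in control embryos. Rcd-1 averaged 9.43 in brakeless embryos and 9.36 in control embryos, where replicate 3 was the highest, while Rcd-1r read 3.57, 3.63 and 3.98 against 6.21, 6.72 and 6.92 in control embryos. The arrays of the groups overlapped for both sun and Rcd-1. Cyt-c1 (difference -0.20), Rpt3 (-0.28), SkpA (0.04) and TfIIA-S (-0.35) were read at means above 10 in both groups. Trf4-1 was the exception in level, with means of 3.90 in brakeless embryos, against 4.05 for the controls, close to the low end. Near-identical copies can share probe signal, and the probes' positions were not examined here.

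**Figure D3:**
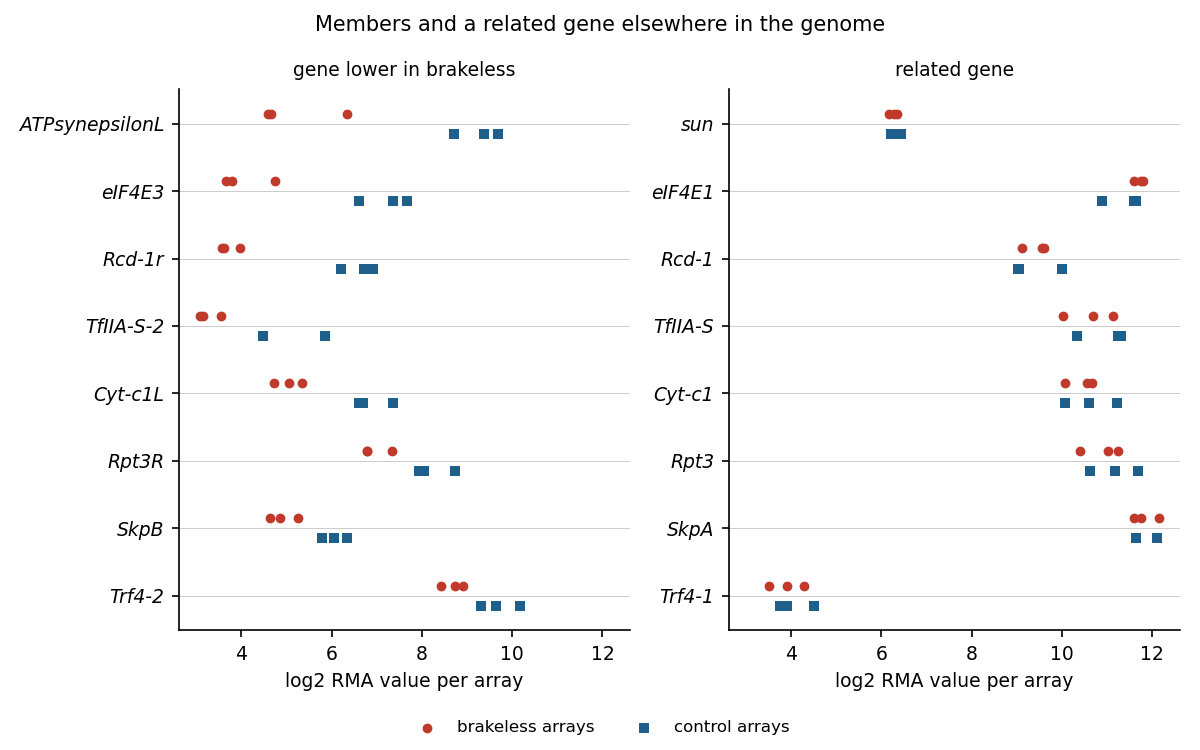
Log2 RMA values on each array (x axis) for 8 genes of the set (left) and a related gene of each (right). Red circles are brakeless arrays and blue squares control arrays, 3 each. The groups are separate in every row on the left, as the rule requires. On the right, where no rule was applied, the differences lie between -0.35 and 0.35.

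The germ line genes without such a partner were ord, tut and mtsh. The gene ord (2R, 23271257 to 23275536) holds sister chromatids together in meiosis and read 3.76, 4.12 and 4.44 in brakeless embryos, against 6.70, 6.68 and 7.44 in control embryos. In the list of cohesion and synapsis genes it was the only 1 of 7 measured genes that passed as lower (limma), and the list's median difference was 0.19. The translational repressor gene tut, whose product acts with Bam in male germ cells, was among the brighter genes of the set. It read 7.16, 7.60 and 7.69 in brakeless embryos, against 9.94, 9.84 and 9.15 in control embryos. mtsh (2L, 8316889 to 8319908), known for organizing mitochondria in spermatogenesis, read 5.14, 5.06 and 5.38 in brakeless embryos and 7.77, 8.78 and 7.60 in control embryos.

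Testis markers were followed because many of these copies are known from that organ. Of 11 markers 8 were under 5 on all arrays, among them dj, Mst87F, can and sa, and none passed the test in either direction (limma, 2 lower at an unadjusted p under 0.05). At that level 557 of 18769 probe sets were lower in all (limma). The mean level of the list was 3.73 to 3.75 on the brakeless arrays and 3.80 to 3.93 on the control arrays. Its brightest gene, bam, differed by -0.03. Meiosis regulator aly read 2.83, 2.96 and 2.88 in brakeless embryos, against 3.70, 5.06 and 4.04 in control embryos, a difference of -1.38 below the floor of the rule. Of 6 pole cell and germ plasm genes none had a negative difference, the median was 0.43, and none passed (limma, 0 at an unadjusted p under 0.05). That list averaged 9.30, 8.90 and 8.74 on the brakeless arrays and 8.72, 9.06 and 7.81 on the control arrays. The groups thus overlapped, with control replicate 3 the lowest. The part of these cell types in the members' differences was not tested.

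Detoxification and metal genes formed a second group of 8, with differences from -2.39 to -1.05. Cytochromes P450 oxidize foreign compounds and hormones, glutathione S-transferases conjugate the products, and metallothioneins bind metal ions. Cyp6a13 (2R, 8570499 to 8572147) read 4.42, 4.29 and 3.91 in brakeless embryos, against 5.88, 6.88 and 7.02 in control embryos. Cyp6d2 was tighter, at 4.80, 4.82 and 4.91 in brakeless embryos and 7.08, 6.95 and 7.45 in control embryos. Cyp9c1 differed by -1.32, and the flavin monooxygenase Fmo-2 by -1.05. Over the P450 family of 81 measured genes, 1 was lower and 1 higher past the test (limma). At an unadjusted p under 0.05, 10 were lower and 2 higher (limma), beside 557 of 18769 probe sets lower in all. These shares are not alike, since the second counts every probe set. The 3 P450 genes of the set were also chosen on this same contrast. The gene higher past the test was Cyp12a4. It read 7.38, 7.32 and 7.22 in brakeless embryos, against 3.59, 3.31 and 4.40 in control embryos. Its difference, 3.54, was larger in size than that of any P450 gene of the set. The family's median difference was -0.06. Of the 81 genes, 61 were under 5 on all arrays, so this median says little about the brighter members.

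GstE9 (2R, 18409048 to 18409835) read 5.82, 6.09 and 6.30 in brakeless embryos, against 7.80, 7.27 and 7.87 in control embryos. GstE7, close by, read 5.63, 4.96 and 5.15 in brakeless embryos and 7.44, 6.43 and 6.13 in control embryos. GstD2 on 3R differed by -1.10. Of 34 glutathione S-transferases measured, 28 had a negative difference, the 3 of the set among them. The median was -0.13, beside -0.0070 over all genes. None passed the test (limma), and 6 were lower and 0 higher at an unadjusted p under 0.05, beside 557 of 18769 probe sets lower in all. These shares are not alike, since the second counts every probe set and the first only the brightest of each gene. The 3 genes of the set were also chosen on this contrast. Among members of the family outside the set, GstD5 differed by -1.35 at a control mean under 5, GstD3 by -0.44, GstD9 by -0.42, GstE1 by -0.07 and GstD1 by 0.20.

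The metallothionein MtnA (3R, 9783407 to 9784370) was the second brightest gene of the set and had an SD of 1.84 in brakeless embryos. It read 6.43, 8.45 and 10.10 on the brakeless arrays and 11.13, 10.33 and 10.42 on the control arrays. Brakeless replicate 3 came within 0.23 of the lowest control, while replicate 1 lay far below. Without brakeless replicate 1 the difference of MtnA was -1.35, and with all arrays it was -2.30.

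Genes of immunity and clotting numbered 5. cGlr2, a cGAS-like receptor that senses foreign nucleic acid, read 4.26, 4.30 and 4.60 in brakeless embryos, against 6.81, 6.69 and 6.51 in control embryos. Sp7 (3R, 7759786 to 7763947), a serine protease of the melanization cascade, read 7.19, 7.11 and 7.40 in brakeless embryos and 9.18, 8.62 and 9.34 in control embryos. PPO3, a prophenoloxidase of the same process, read 5.12, 4.78 and 3.88 in brakeless embryos, and its controls spread widely at 5.40, 6.45 and 7.31. Idgf2, a chitinase-like secreted growth factor, read 7.22, 7.14 and 7.60 in brakeless embryos and 8.83, 8.62 and 9.13 in control embryos. The clotting protein gene fon differed by -1.41. Of 5 hemocyte markers 3 stayed under 5 on all arrays, with a list level of 4.41 to 4.77 on the brakeless and 4.32 to 4.89 on the control arrays, and their part was not tested.

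Metabolic genes of the set acted on lipids, amines and nucleotides. Lsd-1 encodes the lipid droplet protein perilipin 1 and read 4.54, 4.24 and 4.79 in brakeless embryos, against 5.39, 6.27 and 7.32 in control embryos. Its difference was -1.80 with all arrays and -1.30 without control replicate 3. The lipocalin GLaz read 5.36, 5.57 and 5.57 in brakeless embryos and 7.02, 7.15 and 7.21 in control embryos. pyd3 (3R, 7747913 to 7750079), which encodes the beta-alanine synthase of uracil breakdown, read 5.75, 6.12 and 6.31 in brakeless embryos and 7.74, 7.86 and 8.56 in control embryos. Smaller differences belonged to speck, an arylalkylamine N-acetyltransferase (-1.25), sro, an ecdysone synthesis gene (-1.16), and hll, an acyl-CoA synthetase (-1.04).

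Ude, which encodes an enzyme that degrades DNA containing uracil, read 4.19, 4.13 and 4.28 in brakeless embryos, against 5.80, 6.24 and 7.12 in control embryos. Hus1-like, part of a DNA damage checkpoint clamp, and vito, a nucleolar growth regulator, were bright in both groups, with brakeless means of 7.88 and 8.08 against control means of 9.14 and 9.24. Rbm13, a gene of ribosome assembly, read 6.85, 6.86 and 7.43 in brakeless embryos and 8.67, 8.35 and 9.09 in control embryos. Genes of signalling and membrane traffic included Gbeta5, a G protein beta subunit, at 5.56, 5.92 and 4.82 in brakeless embryos, against 7.14, 7.18 and 7.97 in control embryos, and Sans, a scaffold protein of sensory cells, at -2.04. The RabGAP gene TBC1D16 differed by -1.25, the zinc transporter gene Catsup by -1.19, and the secretory GTPase gene Rab27 by -1.12, or by -0.69 without control replicate 3.

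Genes of embryonic patterning or tissue formation numbered 6 in the grouping by role. The targeted gene sbb itself belonged to it, on 1 of its 3 probe sets, with a difference of -1.46. Its other probe sets were dim, at differences of 0.08 and 0.11. The lower level of sbb thus rests on a single probe set that did not pass the test (limma adjusted p = 0.320). That probe set was used as the brightest of the 3. The gene entered the set on this same difference, which is therefore no separate check of the labels. Sry-alpha (3R, 30039719 to 30043071), which organizes actin during cellularization, was the third brightest gene of the set by control mean, at 9.44, 9.58 and 9.74 in brakeless embryos and 10.55, 10.45 and 10.84 in control embryos. It was the only 1 of 13 early zygotic genes in the set. The other 12 ranged from -0.77 for scw to 0.21 for eve, and none of the 13 passed the test (limma, 3 lower and 0 higher at an unadjusted p under 0.05).

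The myoblast adhesion gene kirre (X, 2740384 to 3134532) read 3.59, 3.52 and 3.38 in brakeless embryos, against 4.95, 5.88 and 6.28 in control embryos. On its other probe set, dim throughout, the difference was -0.07. Mlp84B, a muscle LIM protein, read 4.60, 5.37 and 5.51 in brakeless embryos and 5.79, 7.12 and 5.76 in control embryos. SPARC, a basement membrane protein, read 4.44, 5.58 and 5.95 in brakeless embryos, against 6.36, 6.58 and 6.31 in control embryos. The cuticle protein gene Cpr47Eg read 4.46, 6.48 and 6.32 in brakeless embryos and 6.54, 7.20 and 7.20 in control embryos. In the last 3 genes brakeless replicate 1 was the lowest array. The list of 6 measured muscle genes of older embryos averaged 3.35, 4.60 and 5.43 on the brakeless arrays and 5.39, 5.98 and 4.18 on the control arrays. Their part in the differences of these genes was not tested. Without brakeless replicate 1 the differences were -0.65 for SPARC and -0.58 for Cpr47Eg, against -1.09 and -1.22 with all arrays. Without control replicate 2 that of Mlp84B was -0.61, against -1.06.

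The remaining genes were mostly uncharacterized. Names made only of a computed gene number were carried by 66 of the 117 genes (56.4%), against 1908 of the 5955 genes with a control mean of at least 5. Their differences ran from -5.25 to -1.03 with a median of -1.59. Genes of the set were also short: the median gene length in RefSeq was 1904 bases over 114 matched genes, against 2568 bases for all genes above the floor. Of the 114, 113 were protein-coding.

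The set was spread over all chromosome arms, unevenly. It held 30 of 1187 measured genes on 2R (2.53%) and 33 of 1463 on 3R (2.26%), each counted above the control floor of 5. On the X it held 20 of 1028 (1.95%). Lower shares were found on 2L, with 15 of 1060 (1.42%), and 3L, with 14 of 1172 (1.19%). Chromosome 4 contributed 2 of 33 genes, CG31997 and Rnf11. Genes higher in brakeless embryos, chosen by the same rule turned round, had another order of shares, with 18 on 3L (1.54%) and 8 on 2R (0.686%), each counted over genes with a brakeless mean of at least 5. No test of these shares was made. CG5554, also on 2R and among the 6 brightest genes of the set, read 8.90, 8.66 and 8.64 in brakeless embryos, against 9.31, 9.70 and 10.72 in control embryos. Its difference was -1.17 with all arrays and -0.77 without control replicate 3. The arm 2R carries sbb and is the arm made homozygous in the germ line.

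**Figure D4:**
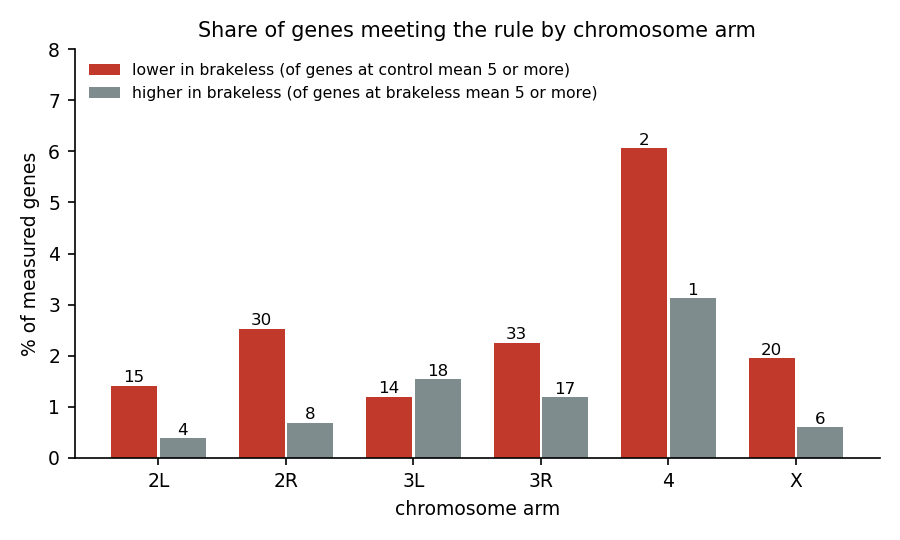
Share of measured genes that met the rule on each chromosome arm (y axis, %), with the number of genes above each bar. Red bars are genes lower in brakeless embryos and grey bars genes higher in brakeless embryos under the same rule turned round. The red share on 2R is 2.53% and on 3L 1.19%, while the grey share is highest among the large arms on 3L, at 1.54%.

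Genes near sbb were counted separately. Within 1 Mb of sbb 131 other genes had a control mean of at least 5, and 3 of them (2.29%) were in the set: GstE7, GstE9 and CG10916. Farther away on 2R the share was 2.46%. Over all 254 genes measured within 1 Mb, 18 were lower and 3 higher at an unadjusted p under 0.05 (limma), beside 557 of 18769 probe sets lower in all. The 2 shares are not alike, since the second counts every probe set and the first only the brightest of each gene. Such a count is not given here for the rest of 2R. CG10916 (2R, 18173669 to 18175725) read 6.39, 6.80 and 6.99 in brakeless embryos, against 8.56, 8.47 and 8.65 in control embryos. It lies 102.5 kb from sbb, and the 2 glutathione S-transferase genes lie 49.6 and 51.8 kb from it.

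Some genes of the set lay near each other. Of the 114 positioned genes, 29 (25.4%) had another gene of the set within 50 kb. There were 923 pairs of a gene of the set and a gene above the floor within 50 kb of it, and in 44 pairs (4.77%) the neighbour was also in the set, beside 1.92% of all positioned genes above the floor. Pairs count clustered genes repeatedly, a pair within the set once from each side, and neighbouring genes are not independent. The 29 genes formed 11 runs, 6 of them with 3 or more genes.

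The longest run was on 2R, from 23246610 to 23275536, and all 4 genes measured in it belonged to the set: RpL22-like, CG12782, CG13540 and ord. CG12782 (23264269 to 23265543) read 3.70, 3.88 and 4.48 in brakeless embryos, against 7.57, 6.73 and 8.19 in control embryos. RpL22-like read 4.14, 4.41 and 4.31 in brakeless embryos and 6.07, 4.97 and 6.35 in control embryos. CG13540 starts at -0.78 kb from the start of ord, and the differences of the 4 genes were -1.51, -3.47, -5.25 and -2.83 in the order given. A second run, PPO3, CG3085 and CG9877, starts at -206 kb, where RpL22-like starts at -24.6 kb, with differences of -1.79, -1.89 and -1.83.

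Within 250 kb of the start of ord 28 genes had a control mean of at least 5, and 7 of them (25.0%) were in the set. The window was chosen after the values were seen. The other 21 genes ranged from -0.82 to 0.83 with a median of 0.0017, and the lowest of them was RpL37-2, another additional copy of a ribosomal protein gene. It read 4.93, 5.23 and 5.55 in brakeless embryos, against 6.27, 5.52 and 6.38 in control embryos, a narrow overlap. Among genes interleaved with the second run, Fib (-0.23) and Art7 (-0.63) had overlapping arrays. Those of l(2)k09913 (-0.37) were barely separate, at 9.9935 for the highest brakeless and 9.9948 for the lowest control array.

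**Figure D5:**
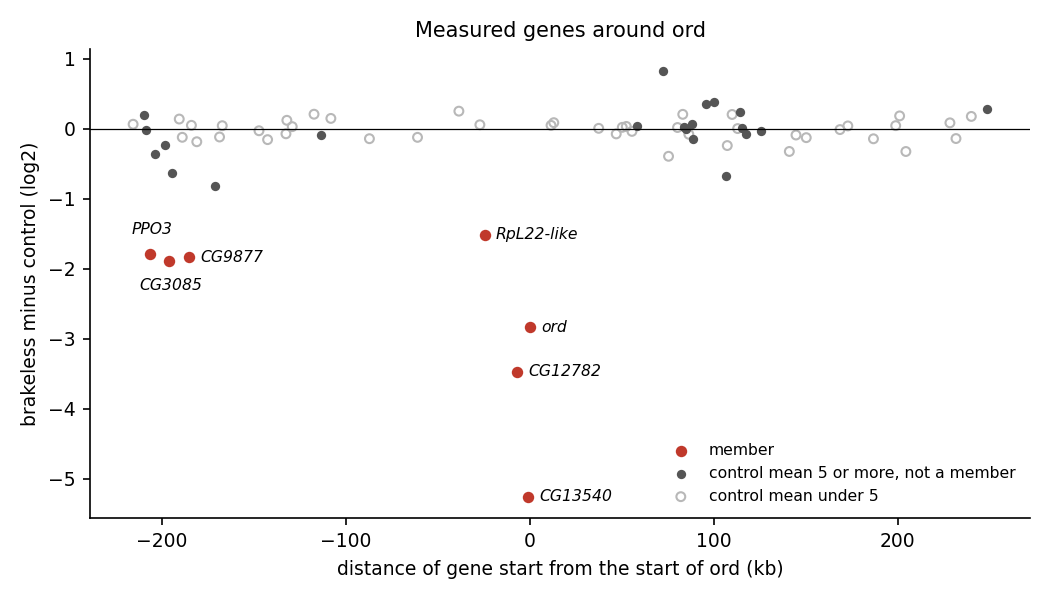
Difference between brakeless and control embryos (log2, y axis) for measured genes by the distance of their start from that of ord (kb, x axis). Red points are genes of the set, dark grey points other genes with a control mean of at least 5, and open circles genes below that level. The 7 red points lie between -1.51 and -5.25, and the dark grey points between -0.82 and 0.83.

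Other runs joined genes named above. On 3L tut and eIF4E3 lie within a span of 21.0 kb (8209577 to 8230568), separated by 3 genes with control means under 5. CG33272 and CG7512 lie on 3L within 8.58 kb, with Sgs3 at the low end between them. On 3R pyd3, Sp7 and CG2993 fall in a span of 62.1 kb, and the fourth gene above the floor there, CG2641, differed by -0.07. Rpt3R, MtnA and CG42857 fall in 66.5 kb on 3R, where 17 genes were above the floor and 10 of them had a negative difference. That count includes the 3 genes of the set, which are negative by the rule. Genes in that span outside the set included RpS29 at -0.05 and CG8507 at 0.72. CG15876 and CG13712 on 3L flank CG13713, which differed by -1.13 but whose arrays overlapped, at 7.32, 8.45 and 8.97 in brakeless embryos and 9.66, 8.84 and 9.62 in control embryos. All 3 genes of that span therefore had differences of similar size, from -1.16 to -1.03.

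Most genes of the set had a single probe set. Of the 117, 6 had others, 7 in all, each with a control mean under 5, so they give little information on agreement within a gene. Among them 5 differences were negative. For CG9380 the second probe set read 2.90, 2.89 and 3.01 in brakeless embryos, against 3.93, 3.61 and 3.70 in control embryos, a difference of -0.81 beside -2.02 on the chosen probe set. For CG1894, GstE9 and Rnf11 the second probe set gave -0.20, -0.15 and -0.49.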

How the data were processed

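Affymetrix Drosophila Genome 2.0 arrays were deposited as 1 log2 value for each probe set, and RMA is the method that the submitters' processing notes name. Settings were not given in the sources used here. RMA gives all arrays 1 distribution of intensities and compresses differences near background. The log2 scale was read from the values (1.98 to 14.3). Arrays carry no read depth, and their number, 3 a group, limits the precision.

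Of 18769 probe sets left after removing Affymetrix controls, 13647 had 1 gene symbol in the platform annotation, 402 several and 4720 none. Each of 11982 genes was represented by its brightest probe set, averaged over 6 arrays. RefSeq (Release 6 plus ISO1 MT) positions matched 11894 genes by gene number. Brakeless and control arrays were compared in R 4.3.3 by limma 3.58.1 (lmFit, eBayes, no covariate, two-sided, Benjamini-Hochberg over all probe sets, threshold 0.05), checked on simulated data. Tables were made in Python 3.11.15 and drawn with matplotlib 3.10.9.

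The members and gene lists were chosen with earlier results of these data known. Genes named with values were those past the test, the 12 with the greatest difference, the 6 brightest, those within 1 Mb of sbb, those with a known role, and those next to the rule's limits. The P450 list was narrowed to symbols with a letter after the family number, which leaves out the cyclophilin genes Cyp1 and Cyp40. Related gene copies, neighbours and genes of the marker lists were named after their values were seen.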

Additional observations from a re-analysis of the deposited data

How the results depend on the processing

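The number of genes meeting the rule was 121 after quantile normalization again (112 of the 117 among them), 117 after centring (116), 113 when probe sets of a gene were averaged (112), 92 with a control mean of at least 6 and 157 when arrays might overlap. It was 64 with a difference of at most -1.5. Leaving out 1 array gave 114 (without brakeless replicate 1) to 187, the highest without control replicate 1 (186) and control replicate 2 (187). Each of these runs had 1 array fewer to separate. The count of members past limma (15) was 9 after quantile normalization again, 44 with array weights and 0 with the replicate block, and 0 to 18 without 1 array. For all probe sets the count of 20 was 34 with trend and robust, 55 with array weights, 0 with the replicate block (442 at an unadjusted p under 0.05), and 0 to 23 without 1 array. The causes were not tested. Quantile normalization again gave 8 higher and 15 lower probe sets, against 6 and 20. Same-numbered arrays did not deviate together (correlations of -0.40, -0.23 and -0.32), the highest being 0.55 between brakeless replicate 3 and control replicate 1. No pairing by number was thus seen in the values. Deviations from means of 3 arrays cannot show whether arrays were handled in pairs. For 62 named genes under these alternatives, 107 of 806 values lost and 41 gained a call. With probe sets of a gene averaged, sbb differed by -0.43, kirre by -1.14, GstE9 by -0.87 and CG1894 by -0.98. Signal near the array's low end limits the folds of dim genes.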

Other observations

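Probe sets without a single gene symbol were not part of the gene set, but 18 of 5122 met the same limits on level, difference and separation. Of these, 4 matched several genes and 14 were unnamed here. The named ones included a probe set for shn and Cyp6v1 at -2.96, 1 for teq and RhoU at -2.02, and 1 for the lncRNA gene CR43836 and CG10962 at -2.55, where CG10962 is also in the set through its own probe set at -1.52. A probe set for CG14452 and CG12546 read 2.92, 6.32 and 7.45 in brakeless embryos, against 8.17, 8.58 and 8.04 in control embryos. The greatest difference among the unnamed was -4.17, with means of 3.13 in brakeless embryos and 7.30 in control embryos.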
